A study of Mus musculus with 15 samples.

Results

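The genes described here are 8 genes best known from the osteoclast, the bone-resorbing cell that forms when precursors of the monocyte and macrophage lineage fuse: Ocstamp, Dcstamp, Tnfrsf11a, Nfatc1, Acp5, Ctsk, Atp6v0d2 and Oscar. They were taken by gene symbol, through the Ensembl identifiers of the count table, and all 8 had a row among its 19456 genes. Their levels in these libraries were known when the genes were chosen, and Ocstamp is among the genes that the study itself picked out from these libraries. The levels and fold changes of the 8 genes are therefore a description, with no test.

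RNA was sequenced from 15 libraries of cells sorted from adult male wild-type C57BL/6 mice, with no other allele or treatment named for any group. Ly6Chi monocytes came from peripheral blood (3 libraries, of 3, 4 and 3 pooled mice), and the small intestine gave 3 macrophage subsets, namely cells without either marker (Tim-4-CD4-), cells with CD4 alone (Tim-4-CD4+), and cells with both (Tim-4+CD4+), each with 4 libraries of 3 pooled mice. The macrophages were sorted on CD64, MHCII and CD11b after removal of lineage-positive cells, and the question was how subsets told apart by the phagocytic receptor Tim-4 and by CD4 differ from each other and from blood monocytes. The total count ran from 39388763 to 151510641 per library, and levels are given as CPM, counts per 1000000 counts of a library size scaled by the trimmed mean of M-values (TMM). Each library comes from pooled mice, so that spread between single mice is not seen. Whether the same pool gave libraries of several macrophage subsets is not stated in the sources used here. The main comparisons treat the libraries as unpaired.

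In osteoclast formation, the cytokine RANKL (gene Tnfsf11) binds RANK (Tnfrsf11a) on the precursor, while osteoprotegerin (Tnfrsf11b) captures RANKL before it can bind. RANK signals through TRAF6 and NF-kB and, together with receptors that use the adaptors DAP12 (Tyrobp) and FcR gamma, raises calcium, which activates the transcription factor NFATc1. NFATc1 drives the fusion proteins DC-STAMP and OC-STAMP, the proton pump subunit Atp6v0d2 and the enzymes TRAP (Acp5) and cathepsin K (Ctsk). Gut macrophages do not normally form osteoclasts, and several of these genes, Acp5 and Tnfrsf11a among them, are also used by other macrophages and dendritic cells.

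By the test used below, Tim-4-CD4- macrophages had 7 of 8 macrophage markers higher and 6 of 6 monocyte markers lower than monocytes. Of all genes, 37.3% were higher and 28.1% lower. Fcgr1, the gene of the sort marker CD64, did not follow the labels. Its mean was 279 ± 99.2 CPM (SD, n = 3) in monocytes and 300, 274 and 268 CPM in the subsets. Most markers of other cell types were also higher, such as 9 of 9 epithelial and 5 of 5 B cell genes. Of 4 neutrophil and eosinophil genes tested, 2 were higher and 2 lower. C1qa, which encodes a complement component made by tissue macrophages, lay between 3180 and 4715 CPM in the 12 macrophage libraries and between 1.53 and 3.33 CPM in monocytes. Ly6c2 lay between 820 and 1545 CPM in monocytes and between 0.379 and 3.46 CPM in macrophages. The summed level of 6 monocyte genes was 557 to 831 CPM in Tim-4-CD4- libraries, 75.7 to 138 CPM in Tim-4-CD4+ libraries and 14.3 to 25.4 CPM in Tim-4+CD4+ libraries, and so moved with the subsets. In bulk samples such as these, fewer cells that express a gene and less of its RNA per cell cannot be told apart. Tim-4+CD4+ replicate 1 was the highest or lowest library of its subset for each of the 8 genes except Oscar. Values without it are given beside those that it moved. Dixon's criterion for outliers, used at the end, flagged it for none of the 8 genes.

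The 8 genes lie on 8 chromosomes and differed widely in level. Compared per kilobase of exon, so that levels of different genes can be set side by side, Acp5 was the highest in Tim-4+CD4+ macrophages at 602 ± 87.3 CPM per kb (SD, n = 4), followed by Ocstamp at 58.1 ± 13.0, Tnfrsf11a at 44.0 ± 7.43 and Nfatc1 at 33.9 ± 4.46 CPM per kb. Tnfrsf11a and Nfatc1 overlapped in these libraries, at 35.2 to 51.2 and 27.5 to 37.0 CPM per kb, and Ocstamp, at 44.9 to 75.7 CPM per kb, overlapped Tnfrsf11a. Far below them came Atp6v0d2 at 0.656 ± 0.0790, Ctsk at 0.378 ± 0.228 and Dcstamp at 0.111 ± 0.0818 CPM per kb, while Oscar had no read in any of the 4 libraries. For comparison, Csf1r, the receptor for macrophage colony-stimulating factor, stood at 1156 ± 36.8 CPM per kb. In Tim-4+CD4+ macrophages, transcripts of TRAP, OC-STAMP, RANK and NFATc1 were thus high, and those of cathepsin K, DC-STAMP and OSCAR were traces or absent. The order differed in the other subsets. In Tim-4-CD4- macrophages Ocstamp, at 19.6 ± 2.64 CPM per kb, was below Tnfrsf11a at 35.1 ± 2.45 and Nfatc1 at 32.0 ± 1.71. In Tim-4-CD4+ macrophages the same genes stood at 41.4 ± 4.53, 48.3 ± 4.35 and 36.1 ± 1.40 CPM per kb.

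**Figure D1:**
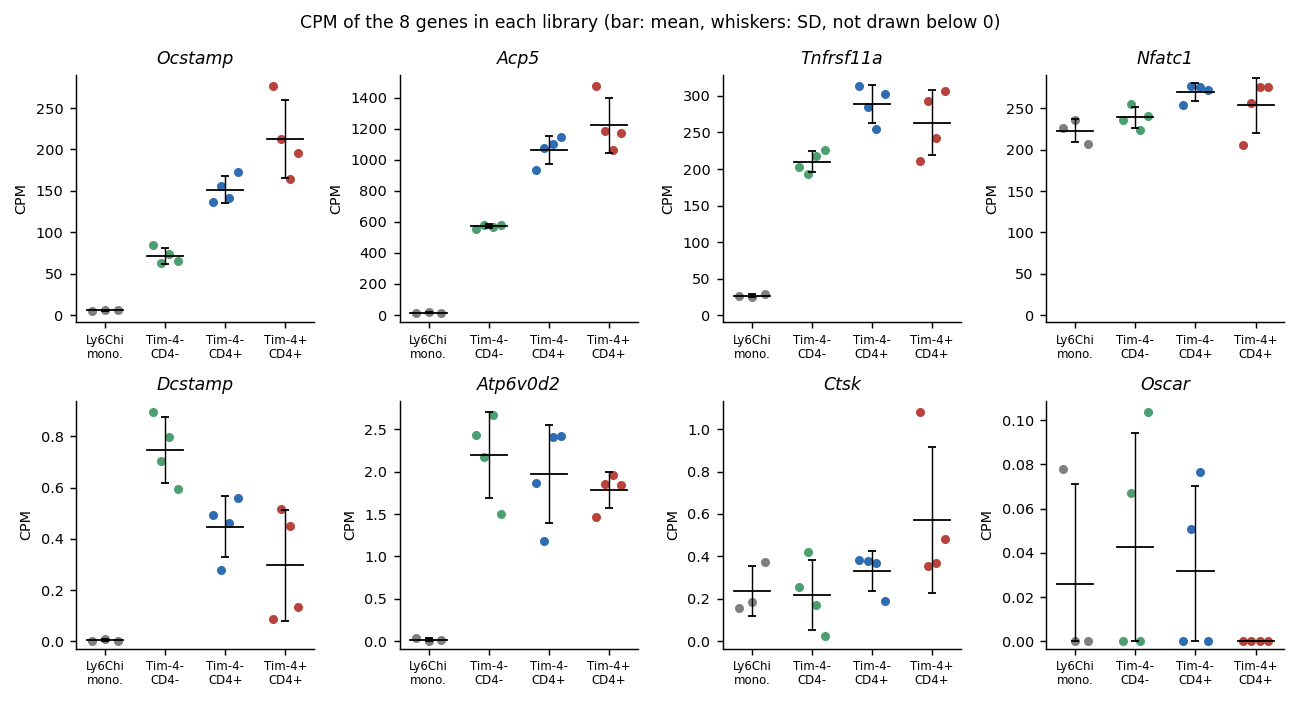
CPM of each of the 8 genes (vertical axes, each from 0 to its own maximum) in every library of the 4 populations (horizontal axes). Points are libraries, bars are means and whiskers are SD. Ocstamp and Acp5 climbed from monocytes over Tim-4-CD4- to the CD4+ subsets, Nfatc1 lay between 205 and 277 CPM in all 15 libraries, and Oscar had no read in the 4 Tim-4+CD4+ libraries.

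Ocstamp (ENSMUSG00000027670.4, chromosome 2, 165393760 to 165400405 on the minus strand of GRCm38, 3 exons) encodes OC-STAMP, a multipass membrane protein needed for the fusion of osteoclast precursors and of macrophages into multinucleated cells. In Ly6Chi monocytes its level was 5.04, 6.22 and 6.09 CPM. In Tim-4-CD4- macrophages it was 84.5, 63.2, 74.0 and 65.5 CPM. Every macrophage library was thus above every monocyte library. In Tim-4-CD4+ macrophages Ocstamp stood at 136, 155, 141 and 173 CPM, above all Tim-4-CD4- libraries. In Tim-4+CD4+ macrophages it stood at 277, 213, 164 and 196 CPM, and the lowest of these overlapped the Tim-4-CD4+ range. The log2 fold change against monocytes was 3.64 ± 0.18 (SE) for Tim-4-CD4- cells, was larger, at 4.71 ± 0.19, when Tim-4-CD4+ cells were compared, and reached 5.20 ± 0.19 with the Tim-4+CD4+ subset. Between macrophage subsets, Tim-4-CD4+ exceeded Tim-4-CD4- by 1.08 ± 0.14 on the log2 scale (2.11-fold), and Tim-4+CD4+ exceeded Tim-4-CD4- by 1.57 ± 0.14 (2.96-fold). The step between the CD4+ subsets was smaller, at 0.49 ± 0.14 (1.40-fold), with overlapping libraries. Replicate 1 of the Tim-4+CD4+ subset was its highest library, and without it the differences of the subset were 1.42 from cells without either marker and 0.34 from cells with CD4 alone. The comparisons against monocytes share the monocyte libraries, and those among the subsets share the macrophage libraries, so they are not independent of each other.

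Acp5 (ENSMUSG00000001348.14, chromosome 9, 22126727 to 22135711 on the minus strand, 9 merged exons) encodes tartrate-resistant acid phosphatase (TRAP), the classical stain of osteoclasts and a lysosomal enzyme of many tissue macrophages. Per kilobase, it was the most abundant of the 8 transcripts in every macrophage subset. Monocyte libraries held 13.1, 17.2 and 14.4 CPM, and Tim-4-CD4- libraries 554, 583, 568 and 582 CPM. Tim-4-CD4+ libraries held 936, 1073, 1104 and 1144 CPM, and Tim-4+CD4+ libraries 1475, 1186, 1061 and 1170 CPM. The Tim-4-CD4- libraries lay closer together than those of the other subsets and below all CD4+ libraries, while the CD4+ subsets overlapped. Relative to Tim-4-CD4- macrophages, the log2 fold change was 0.90 ± 0.11 (1.86-fold) in those of the Tim-4-CD4+ subset and 1.10 ± 0.11 (2.14-fold) in those that also carried Tim-4. Between the CD4+ subsets it was 0.20 ± 0.11, higher with Tim-4, and 0.10 without Tim-4+CD4+ replicate 1. Against monocytes, Acp5 was 38.3-fold higher in Tim-4-CD4- macrophages, and 71.4-fold and 82.0-fold higher in the CD4+ subsets without and with Tim-4. Of its exon bases, 137 are also exonic for 6530413G14Rik on the opposite strand, and reads from there cannot be told apart if strand was not used in counting.

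Acp5 and Ocstamp did not move in a fixed ratio. Per kilobase, Acp5 exceeded Ocstamp 4.26- to 4.98-fold in monocytes, 11.8- to 16.6-fold in Tim-4-CD4- libraries, and 11.9- to 14.1-fold where cells had CD4 alone. In the Tim-4+CD4+ subset it did so 9.60- to 11.6-fold, a range below those of the other subsets.

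**Figure D2:**
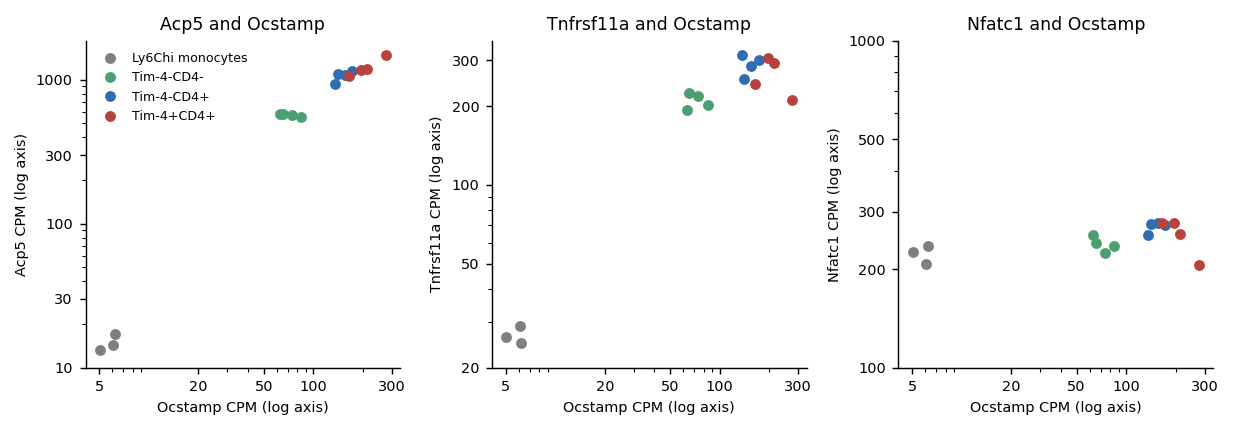
Levels of Acp5, Tnfrsf11a and Nfatc1 (vertical log axes, CPM) against Ocstamp (horizontal log axes, CPM) in the 15 libraries, coloured by population. Acp5 follows the order of Ocstamp across the populations, Tnfrsf11a has its highest mean in the Tim-4-CD4+ libraries, which overlap those of the Tim-4+CD4+ subset, and Nfatc1 stays between 205 and 277 CPM; the library farthest to the right is Tim-4+CD4+ replicate 1.

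Tnfrsf11a (ENSMUSG00000026321.7, chromosome 1, 105780718 to 105847981 on the plus strand, 10 exons) encodes RANK, the receptor for RANKL. Its level was 26.1, 24.9 and 28.8 CPM in monocytes. It was 203, 193, 218 and 226 CPM in Tim-4-CD4- macrophages, 314, 285, 254 and 302 CPM in Tim-4-CD4+ macrophages, and 211, 293, 243 and 307 CPM in Tim-4+CD4+ macrophages. All macrophage libraries were above all monocyte libraries, and the Tim-4-CD4+ libraries were above all Tim-4-CD4- libraries, but Tim-4+CD4+ libraries overlapped both other subsets. The log2 fold change against monocytes was 2.98 ± 0.14, 3.44 ± 0.14 and 3.31 ± 0.14 for the 3 subsets in the same order, that is 7.89-, 10.9- and 9.90-fold. Relative to Tim-4-CD4- macrophages it was 0.46 ± 0.11 in the Tim-4-CD4+ subset and 0.33 ± 0.11 where Tim-4 was also present, and between the CD4+ subsets it was -0.13 ± 0.11, lower with Tim-4. Without Tim-4+CD4+ replicate 1, the latter 2 values were 0.42 and -0.04. RANK transcripts thus separated macrophages from monocytes far more than the subsets from each other.

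Promoter sequences were matched by symbol for 4 of the 8 genes (Tnfrsf11a, Ctsk, Oscar and Acp5, the last with 3 annotated starts), 6 windows in all, and are from RefSeq on GRCm38.p6. Of these genes, Acp5 and Tnfrsf11a are shown because they were high in macrophages and low in monocytes, and Oscar because it was near 0 throughout. Each line gives the 250 bases before an annotated start, read in the direction of the gene. Capitals mark matches, on either strand, to GGAAA (the core bound by NFAT), TGANTCA (AP-1), GAGGAA (a core bound by PU.1) and CATGTG or CACGTG (E-boxes bound by MITF and related factors). A match on the other strand appears as its reverse complement.
Acp5 (chr9:22130599-22130848, minus strand; the most downstream of the 3 starts): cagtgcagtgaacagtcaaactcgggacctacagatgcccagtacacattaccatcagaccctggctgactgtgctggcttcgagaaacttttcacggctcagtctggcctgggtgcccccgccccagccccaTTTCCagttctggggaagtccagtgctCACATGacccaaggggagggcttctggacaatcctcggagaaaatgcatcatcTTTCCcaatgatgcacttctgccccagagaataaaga
Tnfrsf11a (chr1:105780473-105780722, plus strand): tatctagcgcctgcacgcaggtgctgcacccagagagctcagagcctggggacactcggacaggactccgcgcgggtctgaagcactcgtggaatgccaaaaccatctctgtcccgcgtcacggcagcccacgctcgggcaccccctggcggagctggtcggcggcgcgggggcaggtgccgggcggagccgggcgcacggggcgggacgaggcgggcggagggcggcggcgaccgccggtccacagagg
Oscar (chr7:3616158-3616407, minus strand): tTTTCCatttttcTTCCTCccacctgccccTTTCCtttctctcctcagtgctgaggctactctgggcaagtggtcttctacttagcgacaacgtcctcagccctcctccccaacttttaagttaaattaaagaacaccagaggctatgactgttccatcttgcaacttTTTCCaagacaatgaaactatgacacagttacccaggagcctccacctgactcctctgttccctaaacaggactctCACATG

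The Acp5 window, of which 10 bases lie in annotated exons, held GGAAA at 2 places and CATGTG at 1, the Tnfrsf11a window held none of the 5 motifs, and the Oscar window held 5 matches, of which 3 were GGAAA, 1 was GAGGAA and 1 was CATGTG. The other 2 Acp5 windows held 1 GGAAA each, and the Ctsk window held GAGGAA at 2 places. None of the 6 windows held TGANTCA or CACGTG. Over all 32851 promoter windows of the same 250 bases, GGAAA was found in 55.6%, GAGGAA in 23.3%, CATGTG in 12.3%, TGANTCA in 6.75% and CACGTG in 6.02%. The Oscar window, of the gene with the fewest reads, had the most matches of the 6. A match is a run of letters in this window only.

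Nfatc1 (ENSMUSG00000033016.15, chromosome 18, 80606205 to 80713071 on the minus strand) encodes the transcription factor regarded as the master regulator of osteoclast formation. It was present at nearly the same level in all populations: 226, 235 and 207 CPM in monocytes, 236, 255, 224 and 241 CPM in Tim-4-CD4- cells, 254, 277, 276 and 272 CPM in the Tim-4-CD4+ subset, and 205, 256, 276 and 276 CPM with both markers present (Tim-4+CD4+). Only the Tim-4-CD4+ libraries stood clear of the monocyte libraries, by 0.27 ± 0.10 on the log2 scale, while the median of all genes in that comparison was 0.11. On CPM of the raw library total these overlapped too, with Tim-4-CD4+ replicate 1 at 256.6 and monocyte replicate 2 at 256.9 CPM. Relative to Tim-4-CD4- macrophages, the log2 fold changes were 0.18 ± 0.09 in the Tim-4-CD4+ and 0.09 ± 0.09 in the subset with both markers, and between the CD4+ subsets it was -0.09 ± 0.09, with overlapping libraries in each comparison. Without Tim-4+CD4+ replicate 1 the latter 2 were 0.18 and -0.00024. On CPM of the raw library total, the mean was 238 in monocytes and 232 in Tim-4-CD4- macrophages, so the order of these populations turned with the scaling. Per kilobase, Nfatc1 made up 66.0 to 70.8% of the summed Nfatc1, Nfatc2 and Nfatc3 level in monocytes and 54.8 to 69.5% in macrophages, and it was the most abundant of the 3 in every library.

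Dcstamp (ENSMUSG00000022303.8, chromosome 15, 39745930 to 39760938 on the plus strand) encodes DC-STAMP, the relative of OC-STAMP that is likewise needed for fusion of osteoclast precursors. It was close to the limit of detection. Opposite to Ocstamp, it was lower in the CD4+ subsets than in Tim-4-CD4- macrophages. Monocyte libraries held 0, 1 and 0 reads. Tim-4-CD4- libraries held 49, 42, 37 and 23 reads (0.894, 0.704, 0.798 and 0.595 CPM). Tim-4-CD4+ libraries held 27, 11, 36 and 83 reads (0.495, 0.278, 0.460 and 0.560 CPM), and Tim-4+CD4+ libraries held 9, 60, 28 and 8 reads (0.0876, 0.516, 0.450 and 0.133 CPM). Every Tim-4-CD4- library was above every library of the CD4+ subsets, by a narrow margin at 0.595 against 0.560 CPM. From the summed counts, and relative to Tim-4-CD4- macrophages, the level was 0.647 (95% interval 0.514 to 0.815) in the Tim-4-CD4+ subset and 0.406 (0.314 to 0.525) where Tim-4 was also present. These intervals, and those in the plot of low-count genes, cover counting error only and leave out the spread between libraries. Reads without molecular identifiers are not independent molecules, so the intervals may be too narrow even for counting error. The spread between libraries was wider, and the fitted log2 differences were -0.72 ± 0.52 and -1.33 ± 0.53. Without Tim-4+CD4+ replicate 1 the latter was -1.01. Between the CD4+ subsets the difference was -0.60 ± 0.52, lower with Tim-4, with overlapping libraries. It was -0.29 without Tim-4+CD4+ replicate 1 and -0.14 on counts thinned to the smallest library. Against the single monocyte read, the ratio for Tim-4-CD4- macrophages was 225, with an interval from 39.8 to 8961.

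The 2 STAMP genes were therefore expressed at very different levels. Per kilobase, Ocstamp exceeded Dcstamp 65.4- to 80.2-fold in Tim-4-CD4- libraries, 201- to 407-fold in Tim-4-CD4+ libraries and 266- to 2303-fold in Tim-4+CD4+ libraries. The Tim-4-CD4- ratios lay below all others, while the ratios of the CD4+ subsets overlapped.

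Atp6v0d2 (ENSMUSG00000028238.6, chromosome 4, 19876841 to 19922605 on the minus strand) encodes the d2 subunit of the vacuolar proton pump, which in osteoclasts takes part in acidification and in fusion. It was almost absent from monocytes, with 5, 0 and 1 reads. It stood at 2.43, 2.18, 2.67 and 1.5 CPM in Tim-4-CD4- cells. In the Tim-4-CD4+ subset it stood at 1.87, 1.19, 2.4 and 2.42 CPM, and with both markers present (Tim-4+CD4+) at 1.47, 1.85, 1.96 and 1.84 CPM. The 3 subsets overlapped, with log2 differences from Tim-4-CD4- macrophages of -0.15 ± 0.32 in cells with CD4 alone and -0.30 ± 0.32 in cells with both markers, and of -0.16 ± 0.32 between these CD4+ subsets. The ratio of summed counts between Tim-4-CD4- macrophages and monocytes was 111 (95% interval 50.5 to 303). The fitted log2 fold change of 6.70 rested on these few monocyte reads, and was 8.07 without monocyte replicate 1 and 6.15 without monocyte replicate 2. The widely expressed d1 subunit, Atp6v0d1, was far more abundant: per kilobase, d2 made up 0.570 to 1.5% of the sum of d1 and d2 in macrophage libraries and at most 0.0132% in monocyte libraries.

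Ctsk (ENSMUSG00000028111.4, chromosome 3, 95499256 to 95509362 on the plus strand) encodes cathepsin K, the main collagen-degrading protease of osteoclasts. Its counts were 22, 19 and 20 in monocytes, 14, 25, 8 and 1 in Tim-4-CD4- cells, 21, 15, 29 and 28 in the Tim-4-CD4+ subset, and 111, 41, 23 and 29 with both markers present (Tim-4+CD4+). The mean levels were 0.237 ± 0.117 CPM (SD, n = 3), 0.218 ± 0.164, 0.331 ± 0.0948 and 0.571 ± 0.344 CPM (n = 4 each), and all populations overlapped. The Tim-4+CD4+ mean rested on replicate 1, at 1.08 CPM, where the other 3 lay between 0.353 and 0.481 CPM. The log2 difference of the Tim-4+CD4+ subset from macrophages without either marker was 1.35 ± 0.59 with that library and 0.84 without it, and that from cells with CD4 alone was 0.81 ± 0.57 and 0.29. Cathepsin K is also made by fibroblasts, and the summed level of 7 mesenchymal genes, collagens among them, was 10.8 to 14.2 CPM in monocytes, and 69.7 to 103 CPM, 81.4 to 105 CPM and 113 to 163 CPM in the subsets in the same order. Between 3 and 4 of the 7 genes were at 0 in monocyte libraries and none was in macrophage libraries, and the part of this signal in the Ctsk level was not tested.

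Oscar (ENSMUSG00000054594.13, chromosome 7, 3609813 to 3616157 on the minus strand) encodes the collagen receptor that costimulates osteoclast precursors through the FcR gamma chain. Counts were 11, 0 and 0 in monocytes, 0, 4, 0 and 4 in Tim-4-CD4- cells, 0, 2, 6 and 0 in the Tim-4-CD4+ subset, and 0 in all 4 libraries with both markers (Tim-4+CD4+). A count of 0 in those 4 libraries allows up to 3 reads, which is 0.0258 to 0.0498 CPM per library, and the 2-sided 95% Poisson intervals in the plot of low-count genes reach 0.0317 to 0.0612 CPM there. Oscar failed the filter on low counts, and the other 7 genes entered the fit.

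**Figure D3:**
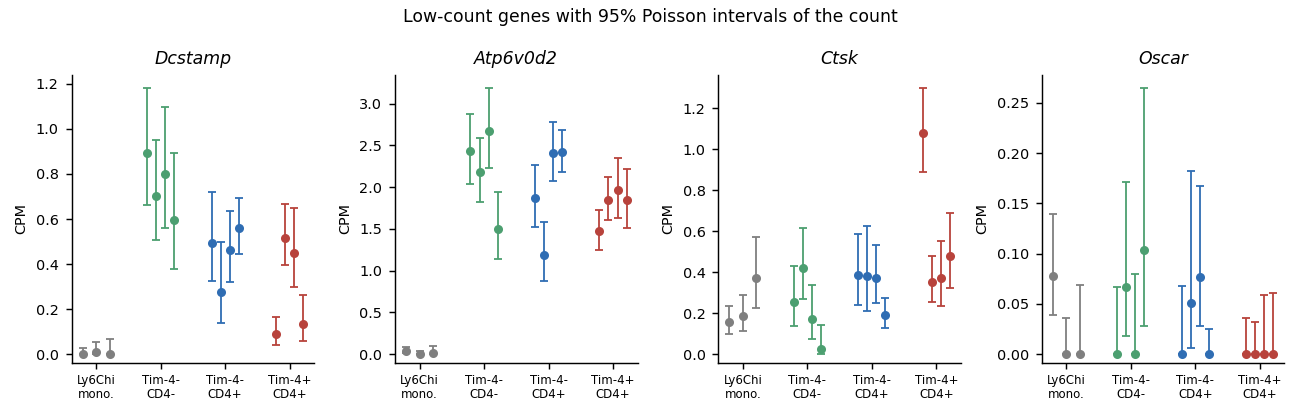
CPM (vertical axes) of Dcstamp, Atp6v0d2, Ctsk and Oscar in each library of the 4 populations (horizontal axes), with 95% Poisson intervals of the count. The 4 Tim-4-CD4- points of Dcstamp, from 0.595 to 0.894 CPM, lie above all CD4+ points, the macrophage points of Atp6v0d2 overlap, and the high Ctsk point at 1.08 CPM is Tim-4+CD4+ replicate 1.

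**Figure D4:**
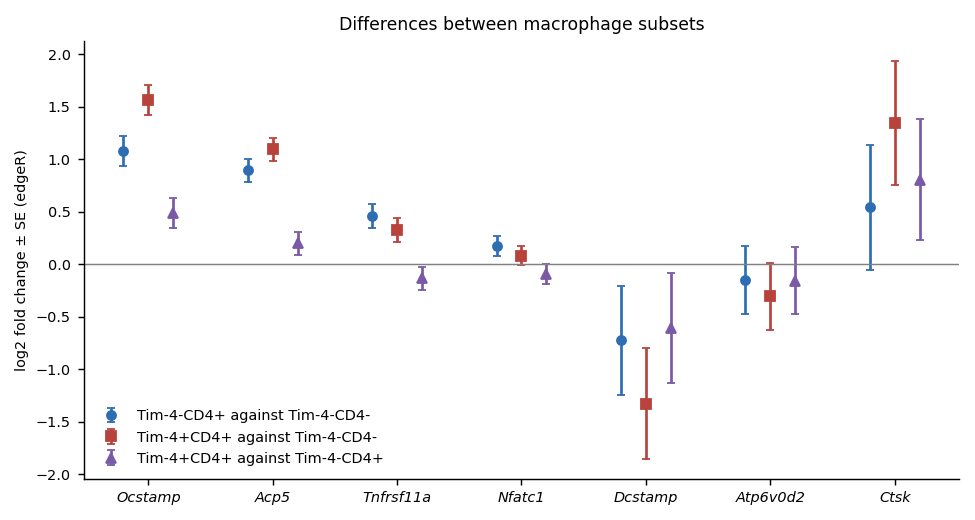
Log2 fold change (vertical axis, ± SE from edgeR) of the 7 genes that passed the filter on low counts (horizontal axis), in the 3 comparisons between macrophage subsets. Ocstamp and Acp5 lie at or above 0.90 in both comparisons with Tim-4-CD4- macrophages, Dcstamp lies below 0 in all 3, and Nfatc1 and Atp6v0d2 lie between -0.30 and 0.18.

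For reference only, since the genes were chosen with these values known, the quasi-likelihood test called 5 of the 7 genes in Tim-4-CD4- against monocytes, where 65.4% of all 15802 genes tested were called. It called 6 in Tim-4-CD4+ against monocytes (69.8% of all genes) and 5 in Tim-4+CD4+ against monocytes (70.9%). Relative to Tim-4-CD4- macrophages it called 3 in the Tim-4-CD4+ subset (10.1% of all genes) and 3 in the subset with both markers (23.1%). Between the CD4+ subsets edgeR called 0 (3.41%), where 1 had an unadjusted p under 0.05 and DESeq2 called 1. Libraries did not overlap for 5, 6, 5, 4, 3 and 0 of the 7 genes in the same order, beside 67.6, 70.1, 68.7, 19.1, 26.4 and 9.63% of all genes.

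Other markers moved in the same order as Ocstamp. The summed level of 5 endothelial genes was 14.0 to 22.3 CPM in monocytes, 126 to 146 CPM in Tim-4-CD4- cells, 200 to 243 CPM in the Tim-4-CD4+ subset and 343 to 389 CPM with both markers present, with at most 1 of the genes at 0 in a monocyte library and none in the macrophages. Most of this was Pecam1, which macrophages also express, at 104 ± 1.77, 185 ± 18.5 and 305 ± 24.4 CPM in the 3 subsets (SD, n = 4), while Lyve1, which some tissue macrophages also carry, stood at 8.82 ± 4.01, 9.70 ± 3.62 and 23.1 ± 9.46 CPM. Vwf stood at 13.3 ± 4.56, 17.6 ± 3.68 and 19.2 ± 4.02 CPM, Kdr at 4.89 ± 3.64, 2.37 ± 1.47 and 4.19 ± 1.13 CPM, and Cdh5 at 4.58 ± 1.35, 3.33 ± 1.16 and 5.24 ± 0.996 CPM. The part of this signal, and of the falling monocyte genes given above, in the levels of Ocstamp and Acp5 was not tested.

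The genes whose log2 CPM tracked Ocstamp most closely, out of 11797 with a mean of at least 1 CPM, were picked by Pearson's r as a description, with no p. The libraries fall into 4 populations, so r also reads the differences between populations. Over all 15 libraries they were Tmprss5, a membrane serine protease, Krba1, Slc38a6, Oplah, which encodes 5-oxoprolinase of glutathione metabolism, and Fam234b, with r from 0.994 to 0.995. Tmprss5 stood at 0.00236 ± 0.00409 CPM in monocytes and at 4.01 ± 0.888, 12.7 ± 1.49 and 22.7 ± 6.15 CPM in the subsets in the order used above. Oplah stood at 1.58 ± 0.156 CPM in monocytes and at 41.7 ± 3.56, 80.1 ± 4.97 and 144 ± 9.66 CPM in the subsets. Over the 12 macrophage libraries alone they were Gm15880, Ccdc166, Pmvk, a kinase of the mevalonate pathway, Socs2, an inhibitor of cytokine signalling, and Tmprss5, with r from 0.977 to 0.983. Gm15880, an antisense gene whose reads cannot be told from those of its partner if strand was not used in counting, had no read in monocytes and stood at 9.81 ± 0.631, 19.3 ± 1.24 and 27.7 ± 5.39 CPM in the subsets. Of the 8 genes themselves, Acp5 came closest to Ocstamp, with r = 0.988 over 15 and 0.971 over 12 libraries. Over the 12 macrophage libraries r with Ocstamp was 0.566 for Tnfrsf11a, 0.147 for Nfatc1 and -0.743 for Dcstamp.

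The surrounding pathway was read from a list of 89 other genes of osteoclast biology, of which 85 had a row and 84 were tested. This list too was drawn up with earlier results of these data known. Its counts and p-values, here and below, are therefore no independent test. Siglec15, Synb, Slc9b2 and Calcr were not analysed here, and Fosl1 did not pass the filter. By edgeR's quasi-likelihood test with Benjamini-Hochberg adjustment over all genes, 73 of 84 differed between Tim-4-CD4- macrophages and monocytes (40 higher and 33 lower in macrophages), 68 between Tim-4-CD4+ macrophages and monocytes (38 and 30), and 66 between Tim-4+CD4+ macrophages and monocytes (36 and 30). Of all genes, 37.3, 39.1 and 39.5% were higher and 28.1, 30.7 and 31.3% lower in these comparisons. Relative to Tim-4-CD4- macrophages, 18 differed in the Tim-4-CD4+ subset (8 higher and 10 lower, beside 4.52 and 5.53% of all genes) and 33 in the subset with both markers (13 higher and 20 lower, beside 11.3 and 11.9%). Between the CD4+ subsets, 1 differed (beside 2.07 and 1.34%), namely Mmp9, which encodes a secreted gelatinase and was lower with Tim-4, at 2157 against 3077 CPM (log2 fold change -0.51 ± 0.12, adjusted p = 0.0237). In that comparison 16 of the 84 had an unadjusted p under 0.05, as did 14.5% of all genes, and DESeq2 called 2. The count of 18 was 11 on leaving out Tim-4-CD4- replicate 3, and also 11 on leaving out replicate 4 of the Tim-4-CD4+ subset, and the call of Mmp9 was lost without Tim-4-CD4+ replicate 1, 3 or 4 or Tim-4+CD4+ replicate 3 or 4. Relative to Tim-4-CD4- macrophages, the median log2 fold change of the 84 genes was 0.0076 in cells with CD4 alone and -0.03 in cells with both markers, beside -0.0029 and -0.0047 over all genes.

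**Figure D5:**
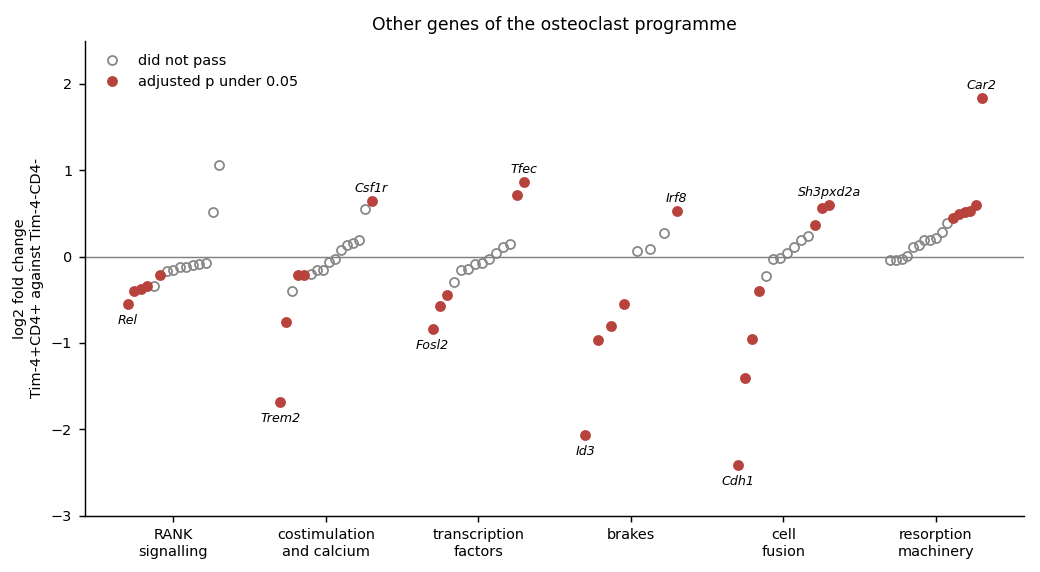
Log2 fold change of Tim-4+CD4+ against Tim-4-CD4- macrophages (vertical axis) for the 84 pathway genes tested, in 6 groups (horizontal axis) and sorted by value within each. Filled points passed the test and the outermost of these are named. No gene of RANK signalling passed upwards and no gene of the resorption machinery passed downwards. Of all genes tested, 11.3% passed upwards and 11.9% downwards.

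Of the 15 genes of RANK signalling, none was higher and 5 were lower in Tim-4+CD4+ than in Tim-4-CD4- macrophages, with a median log2 fold change of -0.15. Over all genes, 11.3% were higher and 11.9% lower in this comparison. With so few genes in a group, little can be read from the direction of its calls. Among the NF-kB subunit genes, Rel fell from 419 to 286 CPM (-0.55 ± 0.14, adjusted p = 0.00709), Nfkb1 from 236 to 182 CPM (-0.37 ± 0.08, adjusted p = 0.0038) and Rela from 181 to 143 CPM (-0.34 ± 0.09, adjusted p = 0.00989). Relb, on the same list, was not among the genes picked for naming. Nfkb1 and Rela were also lower with CD4 alone (adjusted p = 0.0370 and 0.0315), calls lost without 6 and 8 of the libraries taken singly. Nfkb2, the subunit of the noncanonical pathway, fell from 140 to 106 CPM (-0.40 ± 0.12, adjusted p = 0.0288), a call that was lost without Tim-4-CD4- replicate 1 or 2 or Tim-4+CD4+ replicate 2 or 4 (adjusted p up to 0.122). Traf6, the adaptor of RANK, stood at 39.3, 38.6 and 36.1 CPM in the 3 subsets without passing the test between any pair, and was lower in Tim-4-CD4- macrophages than in monocytes (67.5 CPM, log2 fold change -0.78 ± 0.13, adjusted p = 5.28e-05).

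The ligand side was barely detected in the sorted cells. Tnfsf11 (RANKL) had no read in monocytes and a total of 39, 107 and 109 reads in the subsets in the same order, at mean levels of 0.198 ± 0.0263, 0.358 ± 0.180 and 0.278 ± 0.169 CPM (SD, n = 4). Tnfrsf11b (osteoprotegerin) had no read in monocytes and 16, 26 and 56 reads in the subsets, at 0.0781 ± 0.0711, 0.0499 ± 0.0700 and 0.168 ± 0.0289 CPM. Neither gene passed the test between subsets. Both are usual products of stromal and lymphoid cells, whose markers were also found at low levels in these libraries, and the part of such cells was not tested.

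Of the 16 tested genes of costimulation and calcium signalling, 1 was higher and 4 were lower in Tim-4+CD4+ than in Tim-4-CD4- macrophages. Over all genes, these shares were 11.3 and 11.9%. Csf1r rose from 4274 to 6677 CPM (0.64 ± 0.07, adjusted p = 3.67e-06). It was already at 6171 CPM in Tim-4-CD4+ macrophages (adjusted p = 9.27e-05 against Tim-4-CD4-), and did not pass between the CD4+ subsets (adjusted p = 0.482). Trem2, the lipid receptor that signals through DAP12, fell from 24.9 to 7.73 CPM (-1.68 ± 0.19, adjusted p = 6.44e-06), and was at 12 CPM in Tim-4-CD4+ macrophages (-1.05 ± 0.19 against Tim-4-CD4-, adjusted p = 0.00144). Blnk, an adaptor downstream of the same receptors, fell from 19.6 to 11.6 CPM (-0.75 ± 0.16, adjusted p = 0.0019). The kinase gene Btk (-0.22 ± 0.06, adjusted p = 0.0227) and the calcineurin gene Ppp3ca (-0.21 ± 0.07, adjusted p = 0.0406) also passed, but the call of Btk was lost without Tim-4-CD4- replicate 1 or 4 or Tim-4+CD4+ replicate 2 (adjusted p up to 0.0880), and that of Ppp3ca without 13 of the 15 libraries taken singly, all but Ly6Chi monocyte replicate 1 and Tim-4-CD4+ replicate 1 (up to 0.127). Tyrobp, the gene of DAP12 itself, stood at 563, 569 and 627 CPM in the subsets and did not pass the test between any pair.

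Of 14 tested transcription factor genes, 2 were higher and 3 were lower in Tim-4+CD4+ than in Tim-4-CD4- macrophages, beside 11.3 and 11.9% of all genes. Tfec, of the MITF family, rose from 16.3 to 29.8 CPM (0.87 ± 0.14, adjusted p = 0.000185) and was at 30.4 CPM in Tim-4-CD4+ macrophages (0.90 ± 0.14, adjusted p = 0.000409). Prdm1 (Blimp-1), which represses inhibitors of osteoclast formation, rose from 247 to 403 CPM (0.71 ± 0.16, adjusted p = 0.00317). Fosl2, an AP-1 member, fell from 642 to 359 CPM (-0.84 ± 0.11, adjusted p = 4.74e-05), and Mef2c fell from 152.1 to 103 CPM (-0.57 ± 0.15, adjusted p = 0.0111). Fosl2 and Prdm1 also passed, in the same direction, in Tim-4-CD4+ against Tim-4-CD4- macrophages (adjusted p = 0.00415 and 0.0158). That call of Prdm1 was lost without Tim-4-CD4- replicate 3 or Tim-4-CD4+ replicate 4. Mitf, at 53.4, 66.7 and 57.7 CPM, did not pass the test between subsets.

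Of 8 genes that hold back osteoclast formation, 1 was higher and 4 were lower in Tim-4+CD4+ than in Tim-4-CD4- macrophages, beside 11.3 and 11.9% of all genes. When cells with CD4 alone were compared with the same Tim-4-CD4- cells, 1 was higher and 3 were lower, beside 4.52 and 5.53%. Id3 fell from 24.6 to 5.89 CPM (-2.06 ± 0.20, adjusted p = 1.05e-06), Bcl6, a target of Blimp-1, fell from 86.1 to 44.1 CPM (-0.97 ± 0.11, adjusted p = 1.04e-05), and Nr4a1 fell from 1623 to 930 CPM (-0.80 ± 0.15, adjusted p = 0.000718). Id2 fell from 73.7 to 50.6 CPM (-0.54 ± 0.14, adjusted p = 0.00792). Irf8, which restrains NFATc1, went the other way, from 516 to 745 CPM (0.53 ± 0.08, adjusted p = 0.000189). With CD4 alone, Id3, Bcl6 and Nr4a1 were likewise lower (adjusted p = 4.03e-05, 0.000559 and 0.00557) and Irf8 higher (0.0254) than in Tim-4-CD4- cells. The Irf8 call there was lost without 6 of the libraries taken singly. None of these genes passed between the CD4+ subsets.

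Of 14 tested fusion genes other than the STAMP genes, 3 were higher and 4 were lower in Tim-4+CD4+ than in Tim-4-CD4- macrophages. Over all genes, these shares were 11.3 and 11.9%. Adam8, a metalloprotease linked to osteoclast fusion, fell from 11.5 to 4.32 CPM (-1.41 ± 0.23, adjusted p = 0.000314), and Cd44, a hyaluronan receptor, fell from 536 to 276 CPM (-0.96 ± 0.16, adjusted p = 0.000324). Both were also lower with CD4 alone (adjusted p = 0.00553 and 0.0460), where the call of Cd44 was lost without 10 of the libraries taken singly. Sh3pxd2a (Tks5), a podosome scaffold, rose from 71.6 to 108 CPM (0.60 ± 0.17, adjusted p = 0.020), a call lost without Tim-4+CD4+ replicate 4 (adjusted p = 0.0575). Cdh1 (E-cadherin) was lower in both CD4+ subsets, at -2.71 ± 0.75 (adjusted p = 0.0285) and -2.41 ± 0.73 (adjusted p = 0.0249), but the Tim-4-CD4- mean of 3.68 CPM rested on replicate 3 at 10.7 CPM. Without that library the log2 differences were -1.28 and -0.97 (adjusted p = 0.234 and 0.268). The calls of Cdh1 were also lost without Tim-4-CD4+ replicate 2, 3 or 4 in the comparison with Tim-4-CD4+, and without Tim-4+CD4+ replicate 1, 3 or 4 in that with Tim-4+CD4+ macrophages. Cdh1 is itself an epithelial marker. The summed level of 9 epithelial genes, Cdh1 included, was 13.7 to 31 CPM in Tim-4-CD4- libraries and 19.97 to 32.2 CPM in the CD4+ libraries. The sum of 31 CPM was that of Tim-4-CD4- replicate 3, and Cdh1 made up 10.7 CPM of it. The summed level of 7 dendritic cell genes was 122 to 203 CPM in the Tim-4-CD4- libraries and 106 to 159 CPM in those of the CD4+ subsets. It was highest in the same Tim-4-CD4- replicate 3, where Itgae stood at 24.7, Flt3 at 17.9, Ccr7 at 14.3 and Zbtb46 at 5.30 CPM. The larger part of that sum lay in the rest of the list, Xcr1, Clec9a and Dpp4. Of the 7 dendritic cell genes, 2 were lower in cells with CD4 alone and 3 in cells with both markers than in Tim-4-CD4- macrophages, and none was higher. Over all genes, 5.53 and 11.9% were lower in these comparisons. The part of epithelial and dendritic cell RNA in the Cdh1 level was not tested.

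Of 17 tested genes of the resorption machinery, 6 were higher and none was lower in Tim-4+CD4+ than in Tim-4-CD4- macrophages, with a median log2 fold change of 0.21. Over all genes, these shares were 11.3 and 11.9%. In cells with CD4 alone, 3 were higher and none was lower, beside 4.52 and 5.53% of all genes. Car2, the carbonic anhydrase that supplies protons to the osteoclast pump, rose from 9.37 to 28.0 CPM in Tim-4-CD4+ (1.58 ± 0.15, adjusted p = 4.67e-06) and to 33.6 CPM in Tim-4+CD4+ macrophages (1.84 ± 0.15, adjusted p = 2.03e-07), and was 0.0614 CPM in monocytes. Tcirg1, the a3 subunit of the same pump, rose from 627 to 948 CPM in Tim-4+CD4+ macrophages (0.60 ± 0.12, adjusted p = 0.00138), and Mmp14, a membrane-bound collagenase, from 562 to 811 CPM (0.53 ± 0.17, adjusted p = 0.035). Src, the kinase needed for the ruffled border, rose from 106 to 151.7 CPM (0.51 ± 0.18, adjusted p = 0.0477). The call of Mmp14 was lost without Tim-4-CD4- replicate 2, 3 or 4 or Tim-4+CD4+ replicate 1 or 4 (adjusted p up to 0.0883), and that of Src without Ly6Chi monocyte replicate 2, Tim-4-CD4- replicate 1, 3 or 4, Tim-4-CD4+ replicate 2 or 4, or Tim-4+CD4+ replicate 1, 3 or 4 (up to 0.137). Atp6v0d1, the companion of Atp6v0d2, stood at 121, 129 and 138 CPM in the subsets and did not pass the test between any pair.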

How the data were processed

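The authors sorted the cells by FACS, made strand-specific polyA libraries from pooled mice, removed adapters and poor bases with Trimmomatic 0.36, mapped the reads with STAR on the GRCm38.p4 build, and counted them per gene with HTSeq 0.6.1p1 against GENCODE vM11. The deposited values used here are raw counts per gene, not normalized; the strand setting is not given in the sources used here. The authors also deposited counts divided by a size factor per library, and these 15 columns were not used. Each gene of the table had at least 16 reads in all, and 35 identifiers had no symbol.

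All 8 genes and the gene lists were chosen with earlier results of these data known. Genes were filtered with filterByExpr and scaled with TMM, and 1 quasi-likelihood fit in edgeR 4.0.16 (R 4.3.3) over the 15 libraries, with population as the only term, gave all comparisons, adjusted over 15802 genes with a threshold of 0.05. SE is the log2 fold change divided by the square root of F. Log2 CPM used a prior count of 2. Of the pathway list, the text names 9 genes fixed by name, of which 1 is not reported here, and up to 4 genes of each group with a mean of at least 1 CPM that pass the threshold between subsets, by the largest change from cells without either marker to cells with both, and it adds Mmp9 as the single gene called between the CD4+ subsets. Exon lengths and positions are from GENCODE M21 on GRCm38. Ratios of summed counts have exact 95% intervals. The fit was tested on simulated data. The alternatives were DESeq2 1.42.0, relative log expression scaling, other filters, only the populations compared, replicate blocks, thinned counts and leaving out each library. Figures were drawn with matplotlib 3.10.9.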

Additional observations from a re-analysis of the deposited data

Results flagged for a closer look

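In groups of 4 libraries, a single library stood far from the other 3 by Dixon's criterion in 6 of 122 groups examined, and chance flags about 1 group in 20. Of the 8 genes, only Ctsk was flagged: in Tim-4-CD4+ replicate 4 it stood at 0.189 CPM, where the other 3 libraries held 0.371 to 0.385 CPM. Among the pathway genes, Tyrobp stood at 840 CPM in Tim-4+CD4+ replicate 1 and at 550 to 559 CPM in the others. Mef2c was at 149 CPM in Tim-4-CD4+ replicate 1 against 112 to 117 CPM, and Irf8 at 570 CPM in Tim-4-CD4- replicate 2 against 493 to 504 CPM. Id3 was at 11.5 CPM in Tim-4-CD4+ replicate 3 against 6.37 to 6.95 CPM, and Cdh1 at 10.7 CPM in Tim-4-CD4- replicate 3 against 1.28 to 1.45 CPM.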

How the results depend on the processing

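The counts of calls over the 8 genes and over the whole pathway list stayed within 1.5 times their value under all alternatives run, apart from these. In Tim-4-CD4+ against Tim-4-CD4- macrophages, pathway genes called ranged from 11 to 20 when libraries were left out singly, beside 18. In Tim-4+CD4+ against Tim-4-CD4+ macrophages, pathway genes called were 2 with DESeq2 and 0 to 1 with libraries left out, beside 1, and of the 8 genes 1 was called with DESeq2 and 0 to 1 with libraries left out, beside 0. The causes were not tested. Replicate numbers were not taken to pair the samples. The paper describes independent sorts of pooled mice for the macrophages, which can be read as each sort giving all subsets. Which libraries share a sort or a pool is not given in the sources used here. The main fit, with population as the only term, took no account of such pairing. The numbers of titles and descriptions differ for Tim-4-CD4+ libraries, and deviations correlated above 0.1 in 4 of 12 pairs of macrophage libraries by description, number 4 among them in all 3 subset comparisons (0.128 to 0.161), and 2 of 12 by title. With a replicate block by title, pathway genes called between the CD4+ subsets were 0, and by description 2, beside 1. Of the genes named, those that lost a call under a block were Cd44, Nfkb1, Rela, Irf8 and Cdh1 in Tim-4-CD4+ against Tim-4-CD4- macrophages, and Cdh1, Src and Ppp3ca in Tim-4+CD4+ against Tim-4-CD4- macrophages. In the latter comparison Src, Btk and Ppp3ca also lost it with no filter on low counts, Btk and Ppp3ca with only the populations compared, and Ppp3ca with RLE normalization, the filter on mean CPM and thinned counts. In the 3 comparisons between macrophage subsets, 33 pathway genes were followed, those fixed by name and those picked by the rule. Their fold changes kept their side of the threshold in 2141 cases, lost the call in 98 and gained it in 13. None of these that passed the test changed sign under any alternative run. Pathway genes in the comparisons with monocytes, and Mmp9, were not examined gene by gene in this way. Against monocytes, the median log2 fold change of all genes was 0.08 to 0.11 with TMM and 0.16 to 0.24 with DESeq2. Counts of at most 11 limit Oscar in all populations. Counts in single digits limit Dcstamp and Atp6v0d2 in monocytes, Dcstamp in Tim-4+CD4+ replicates 1 and 4, and Ctsk in Tim-4-CD4- replicates 3 and 4. On the gene strand alone, 6 of 30 counts of motif matches changed.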
